A study of Homo sapiens with 5 samples.

Results

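The peaks described here lie in 4 stretches of the genome that hold 6 genes of quinone and carbonyl metabolism: NQO1, the aldo-keto reductases AKR1C1, AKR1C2, AKR1C3 and AKR1B10, and the aldehyde dehydrogenase ALDH3A1. Chromatin immunoprecipitation with sequencing (ChIP-seq) of NRF2 had been done in BEAS-2B, an immortalised human cell line from bronchial epithelium. Cells were kept for 5 h in 10 µM D,L-sulforaphane (SFN, 2 samples) or in 0.1% DMSO as vehicle (2 samples), and complexes were recovered with a rabbit monoclonal antibody against NRF2. In addition, 1 vehicle sample was precipitated with rabbit IgG. The labels name no genetic change in any group, and whether samples of 1 treatment are separate cultures is not said. The data were 2 peak lists, 1 for each treatment, in hg19 coordinates, with no value for a single sample, so differences between the treatments have no replicate error and were not tested. A peak was taken when its summit, the position covered by most tags (sequenced DNA ends), fell in a window: chr16:69735000-69775000 for NQO1, chr10:4995000-5160000 for AKR1C1, AKR1C2 and AKR1C3 together, chr7:134200000-134235000 for AKR1B10, and chr17:19635000-19665000 for ALDH3A1. This gave 4 peaks of the 4124 in both lists, 3 of 1925 in the SFN list and 1 of 2199 in the vehicle list. A peak is tied to a gene here by its window alone. Its distance to the start of the gene, and whether it lies in an exon, an intron or between genes, was not determined, since no annotation of hg19 was used.

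NRF2 is a transcription factor that is degraded in unstressed cells through its partner KEAP1. Electrophiles such as sulforaphane modify KEAP1, after which NRF2 accumulates, pairs with small MAF proteins and binds antioxidant response elements. The 6 genes encode enzymes that remove reactive quinones, ketones and aldehydes, and they are among the genes whose expression is widely used as a readout of NRF2 activity in airway epithelium. NQO1 reduces quinones straight to hydroquinones and so avoids the semiquinone radical. AKR1C1, AKR1C2 and AKR1C3 reduce ketones and aldehydes, among them steroid hormones and products of lipid peroxidation, AKR1B10 reduces retinal and other aldehydes, and ALDH3A1 oxidises aromatic and lipid-derived aldehydes to acids.

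The AKR1C genes resemble one another in sequence, which can matter for placing tags, so the sequences before their gene starts are shown first. RefSeq sequences on GRCh38.p14 were at hand for 4 of the 6 genes and not for AKR1B10 and ALDH3A1. The 250 bases before the gene start are given 5′ to 3′ on the strand of the gene, and capitals mark bases lying in a word of 36 bases, the length of a sequenced tag, that also occurs in the promoter of another gene. AKR1C1 is from chr10:4963165-4963414 (plus strand), AKR1C2 from chr10:5003858-5004107 (minus strand) and AKR1C3 from chr10:5048531-5048780 (plus strand, the first of 2 AKR1C3 starts in the table). NQO1 is from chr16:69726561-69726810 (minus strand). These positions are on GRCh38.p14 and cannot be set against the hg19 peaks.
AKR1C1: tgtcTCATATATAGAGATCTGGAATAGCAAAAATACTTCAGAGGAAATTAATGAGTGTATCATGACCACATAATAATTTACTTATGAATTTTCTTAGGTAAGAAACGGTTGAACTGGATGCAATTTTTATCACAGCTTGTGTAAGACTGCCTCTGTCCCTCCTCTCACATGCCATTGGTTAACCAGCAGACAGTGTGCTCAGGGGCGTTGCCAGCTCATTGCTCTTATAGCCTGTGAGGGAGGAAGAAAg
AKR1C2: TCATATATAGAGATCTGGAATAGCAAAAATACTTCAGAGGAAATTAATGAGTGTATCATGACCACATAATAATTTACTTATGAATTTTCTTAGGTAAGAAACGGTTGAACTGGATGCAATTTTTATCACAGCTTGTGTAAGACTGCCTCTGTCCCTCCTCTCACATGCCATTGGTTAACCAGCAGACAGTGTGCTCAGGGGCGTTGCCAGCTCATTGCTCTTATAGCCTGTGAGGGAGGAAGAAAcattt
AKR1C3: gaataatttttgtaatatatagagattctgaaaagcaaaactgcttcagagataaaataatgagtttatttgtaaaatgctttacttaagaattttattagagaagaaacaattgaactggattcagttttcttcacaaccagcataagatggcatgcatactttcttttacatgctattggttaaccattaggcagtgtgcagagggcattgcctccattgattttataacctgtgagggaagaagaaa
NQO1: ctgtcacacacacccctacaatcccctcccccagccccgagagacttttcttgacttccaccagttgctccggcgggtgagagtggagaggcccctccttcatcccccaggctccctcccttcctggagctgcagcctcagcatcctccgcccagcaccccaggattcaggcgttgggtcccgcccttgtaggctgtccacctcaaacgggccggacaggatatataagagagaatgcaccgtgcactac

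AKR1C1 and AKR1C2 shared 1 unbroken run of 245 bases before their starts. Of the 215 words of 36 bases in each, 210 (97.7%) occurred in the other, so a tag from most of this stretch does not tell the copies apart. For AKR1C3 the number was 0 of 215 at both of its starts, and it was 0 of 215 for NQO1. Words were sought only in the RefSeq promoters of other genes. The rest of the genome was not searched, and the AKR1C3 starts were not set against each other in this way. Aligned base by base, the first AKR1C3 stretch was 79.1% identical to AKR1C1 and 79.6% identical to AKR1C2. The sources used here do not give how tags that fit several places were treated, and the part this played in the peaks of the AKR1C window was not tested.

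The letters of the antioxidant response element core, TGACNNNGC, read on both strands, were looked for in the promoters, taken as 250 bases before to 50 bases after the start. The core was in 4687 of 35116 promoters (13.3%) and in 0 of the 5 promoters of NQO1, AKR1C1, AKR1C2 and AKR1C3. That says only that these letters are not in these windows. Among 24 further enzymes of quinone, carbonyl and aldehyde metabolism, 20 had a promoter in the table, and 4 of their 27 promoters (14.8%) held the core, close to the share over all promoters. They belonged to AKR7A2, an aldehyde reductase, CBR1, a carbonyl reductase that acts on quinones, and CYB5R3, which reduces a cytochrome with NADH. In CBR1 the match began 159 bases before the start. Sequence under the peaks themselves was not read, because no hg19 genome was used.

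By fold over the local control, NQO1 had one of the strongest peaks after sulforaphane (number 3 by fold, 67 by tags). It was the only 1 of the 6 genes with a peak in the vehicle list. The SFN peak, chr16:69760632-69761102, was 471 bp long and had 122 tags at its summit, and the caller's fold, the tags plus 1 over the local control plus 1, was 56.6. The vehicle peak, chr16:69760912-69761082, was 171 bp long and had 7 tags and a fold of 6.71. It lay wholly inside the SFN peak and covered 36.3% of it, toward the end with the higher coordinates. The summits were 77 bp apart, at 69760914 and 69760991, and the ends 20 bp apart, while the starts were 280 bp apart. No other peak was near: the next summit was 2486 kb away in the SFN list and 678 kb away in the vehicle list.

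**Figure D1:**
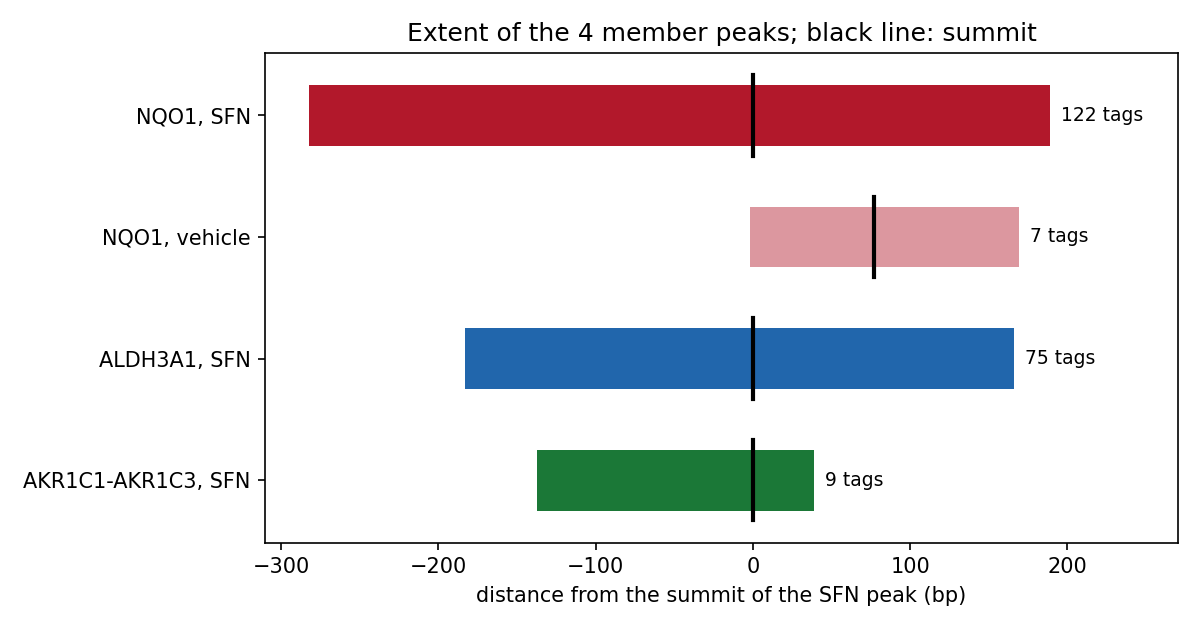
Extent of the 4 peaks in bp from the summit of the SFN peak of the same window, with the summit as a black line and the tags at the summit beside each bar. The vehicle peak at NQO1 lies within the SFN peak, with its summit 77 bp from the SFN summit.

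ALDH3A1 had a peak of high fold in the SFN list (number 28 by fold, 215 by tags) and none in the vehicle list. The peak, chr17:19656311-19656659, was 349 bp long, with 75 tags at its summit and a fold of 22.5. Its summit lay 9 bp from the middle of the peak. The next SFN summit was 563 kb away and the nearest vehicle summit 1031 kb away. The protein-coding neighbours of ALDH3A1 in RefSeq are SLC47A2, a transporter of organic cations, and ULK2, an autophagy kinase.

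The 3 AKR1C genes had 1 low peak between them, in the SFN list alone. It lay at chr10:5062585-5062760, was 176 bp long and had 9 tags and a fold of 7.03. Its summit was 67.7 kb above the lower end of the window and 97.3 kb below its upper end, and it was not assigned to 1 of the 3 genes. The nearest vehicle summit was 1428 kb away. AKR1B10 had no peak in either list.

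Just outside the windows, 2 SFN peaks lay nearer than any other, both without a vehicle peak. The first, chr7:134133481-134133680, had 14 tags and a fold of 9.81, and its summit was 66.4 kb below the AKR1B10 window. In the order of RefSeq genes AKR1B1, which encodes aldose reductase, comes just before AKR1B10 on that side, and whether the peak lies in it was not determined. The second, chr10:5326470-5326790, had 20 tags and a fold of 14.8, and lay 167 kb above the AKR1C window, on the side where RefSeq places AKR1C8 and AKR1C4. Both were taller and had a higher fold than the peak inside the AKR1C window. The vehicle peaks nearest to the AKR1B10 window were 837 kb below and 2423 kb above it.

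In the SFN list the 3 peaks differed widely in height. The NQO1 peak was 1.63 times as high as the ALDH3A1 peak and 13.6 times as high as the AKR1C peak. Exact 95% Poisson intervals, which cover counting error alone, were 101 to 146 tags for NQO1, 59 to 94 for ALDH3A1 and 4.12 to 17.1 for AKR1C, and none of them overlapped. At most 1 tag was kept per position and strand, so with fragments of 153 bp no summit can exceed 306 tags, and the tallest SFN peak had 287. NQO1 stood at 39.9% of this ceiling, ALDH3A1 at 24.5% and AKR1C at 2.94%. The median over all SFN peaks was 26.0 tags and a fold of 5.12, so NQO1 and ALDH3A1 lay above the median in both, and AKR1C lay below it in tags and above it in fold.

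The rank of each peak depended on the measure used. By fold the NQO1 peak was number 3 of the SFN list, ALDH3A1 number 28 and AKR1C number 394. By −log10 p they were numbers 4, 21 and 1231, and by tags numbers 67, 215 and 1553. The vehicle peak at NQO1 was number 516 of its list by fold, 741 by −log10 p and 934 by tags. Its 7 tags were near the vehicle median of 6, and 42 vehicle peaks had that same height. The order NQO1, ALDH3A1, AKR1C held in the SFN list under all 3 measures.

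**Figure D2:**
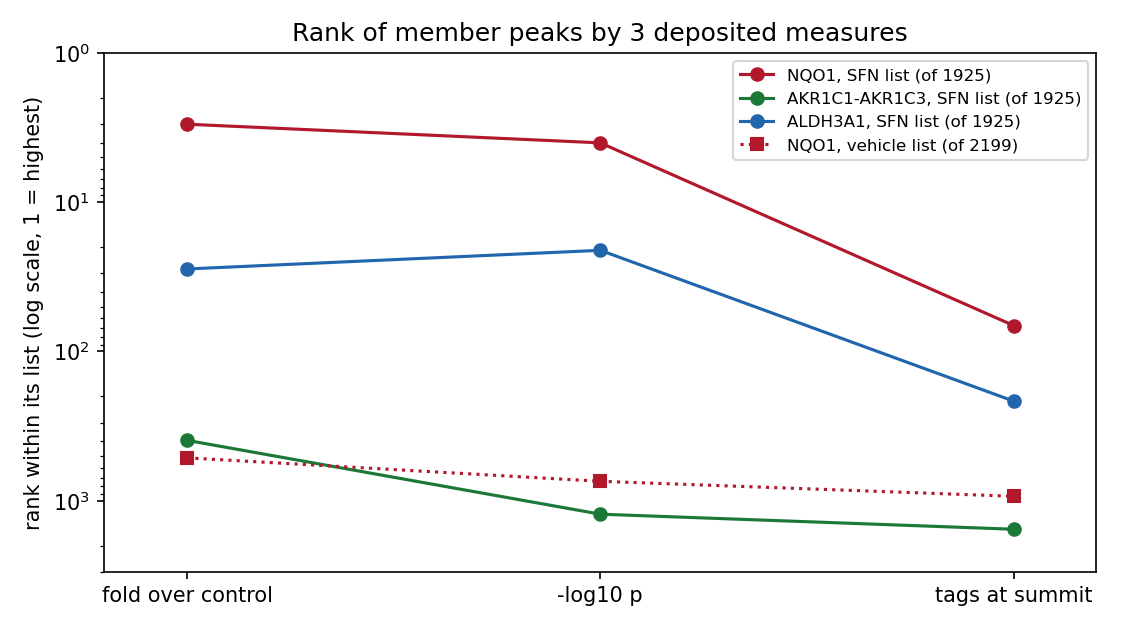
Rank of each peak within its own list (log scale, 1 is the highest) by fold, −log10 p and tags at the summit, with SFN peaks as circles and the vehicle peak as squares. The NQO1 peak of the SFN list goes from rank 3 by fold to rank 67 by tags, and stays above the other peaks.

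The control beneath the peaks differed as well. The local control level, computed back from the fold and the tags and expressed in multiples of the genome average, was 2.78 at the NQO1 peak and 5.65 at the ALDH3A1 peak of the SFN list. At the AKR1C peak it was 1, the lowest value the caller allows. The median over the SFN list was 8.16, so all 3 lay where the control was lower than at most SFN peaks. The vehicle peak at NQO1 had a control level of 2.30, against a vehicle median of 2.04. Of the 66 SFN peaks with more tags than NQO1, 63 lay at a control level above the list's median, and their median level was 93.8. NQO1 thus ranked far higher by fold than by tags, as the plot of height against control level shows.

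**Figure D3:**
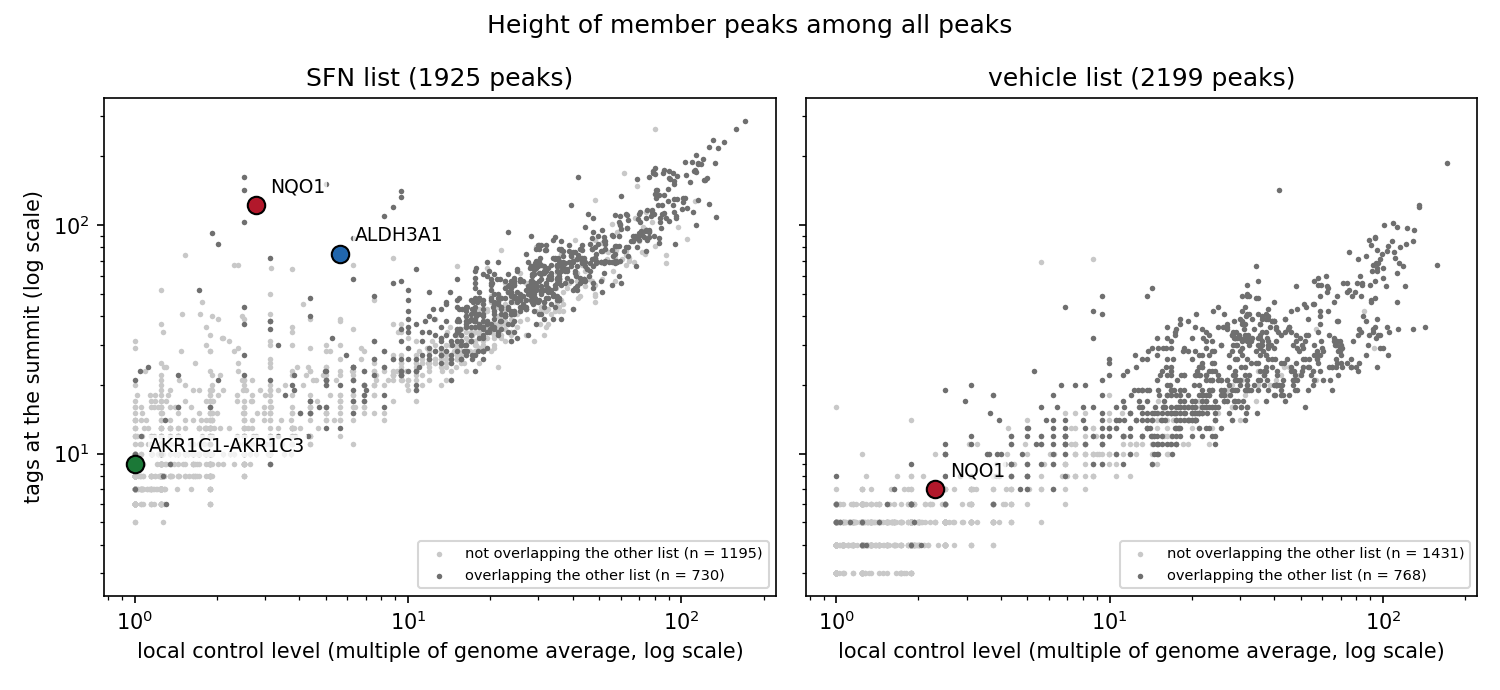
Tags at the summit against the local control level (multiples of the genome average) for every peak of the SFN list (left) and the vehicle list (right), both axes logarithmic, with peaks that overlap the other list in dark grey. NQO1 (122 tags) and ALDH3A1 (75 tags) stand above most SFN peaks at a like control level, and AKR1C (9 tags) lies at the lowest level.

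At the lowest control level the fold follows from the tags alone. The fold of 7.03 at AKR1C was the highest of any of the 88 SFN peaks with 9 tags, and 19 of the 88 had it, all at the lowest control level. The peaks on either side of it in rank, chr1:232257899-232258076 and chr11:175746-175898, also had 9 tags, and with so many equal folds their place beside it is arbitrary. Beside NQO1 in the ranking by fold stood chr17:15546128-15546627 with 143 tags and a fold of 69.9 and chr11:61739292-61739675 with 92 tags and a fold of 51.4. Beside ALDH3A1 stood chr7:43612141-43612449 with 31 tags and a fold of 22.5 and chr2:241327029-241327380 with 50 tags and a fold of 21.9. ALDH3A1 had more tags than either, at a higher control level (5.65 against 1 and 3.14). Beside the NQO1 peak of the vehicle list stood chr2:89870096-89870427 with 18 tags at a control level of 22.0 and chr22:18721554-18721845 with 12 tags at 11.3. These had more tags than the NQO1 peak at a higher control level.

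Of the 3 SFN peaks, 1 shared at least 1 bp with a vehicle peak. Over the whole SFN list the share was 37.9% (730 of 1925), and over the vehicle list 34.9% of peaks overlapped an SFN peak (768 of 2199), so the count of 1 in 3 is near the background. That background mixes control levels. Of the 66 SFN peaks with more tags than NQO1, whose median control level was 93.8, 61 overlapped a vehicle peak. The 3 SFN peaks in the windows had levels of at most 5.65. Of the 28 SFN peaks with a fold at least as high as that of ALDH3A1, 14 overlapped a vehicle peak (50%). NQO1 was among these 14 and ALDH3A1 was not. Of the 7 SFN peaks nearest to NQO1 in rank by fold, 6 overlapped a vehicle peak, and of the 10 nearest to ALDH3A1 it was 2. Of the 88 SFN peaks with 9 tags, as at AKR1C, 2 overlapped a vehicle peak (2.27%).

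The lists differed in depth, which limits what the vehicle list could show. After the limit on tags per position the SFN list rested on 7448599 tags (32.3% of all its tags) and the vehicle list on 1459665 (12.8%), a ratio of 5.10. Scaled by that ratio, the NQO1 peak of the SFN list would have 23.9 tags at the vehicle depth (exact 95% Poisson interval 19.9 to 28.5, counting error alone), and the vehicle peak had 7 tags (2.81 to 14.4). These intervals did not overlap, but with 1 list per treatment they leave out variation between samples and do not test the treatment. Relative to kept tags the SFN height was 3.42 times the vehicle height. The scaling takes height to grow in proportion to kept tags, while the limit of 1 tag per position and strand caps it. NQO1 stood at 39.9% of the ceiling in the SFN list and at 2.27% in the vehicle list. How far the limit affected the scaled heights was not tested. Relative to all tags before the limit (a ratio of 2.03 between the lists) the SFN height was 8.59 times the vehicle height. That value sets heights counted after the limit against totals counted before it. For ALDH3A1 the scaled height was 14.7 tags (11.6 to 18.4), and at its control level 5 tags would have reached the weakest p in the vehicle list. For AKR1C it was 1.76 tags (0.806 to 3.35), where 3 tags would have been needed. The scaled ALDH3A1 height and its interval thus lay above the 5 tags needed. Whether the lower depth accounts for the missing vehicle call there was not tested. Scaled by all tags the AKR1C height was 4.43, above the 3 tags needed. That ratio counts tags before the limit, while the heights and the tags needed were counted after it. By kept tags the AKR1C height was below 3 tags, but its interval spanned 3. Whether a peak like AKR1C could have been called at the vehicle depth is therefore not settled. The efficiency of the precipitations was not measured, and with 1 list per treatment its part in the difference at NQO1 and ALDH3A1 cannot be told apart from that of the treatment.

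**Figure D4:**
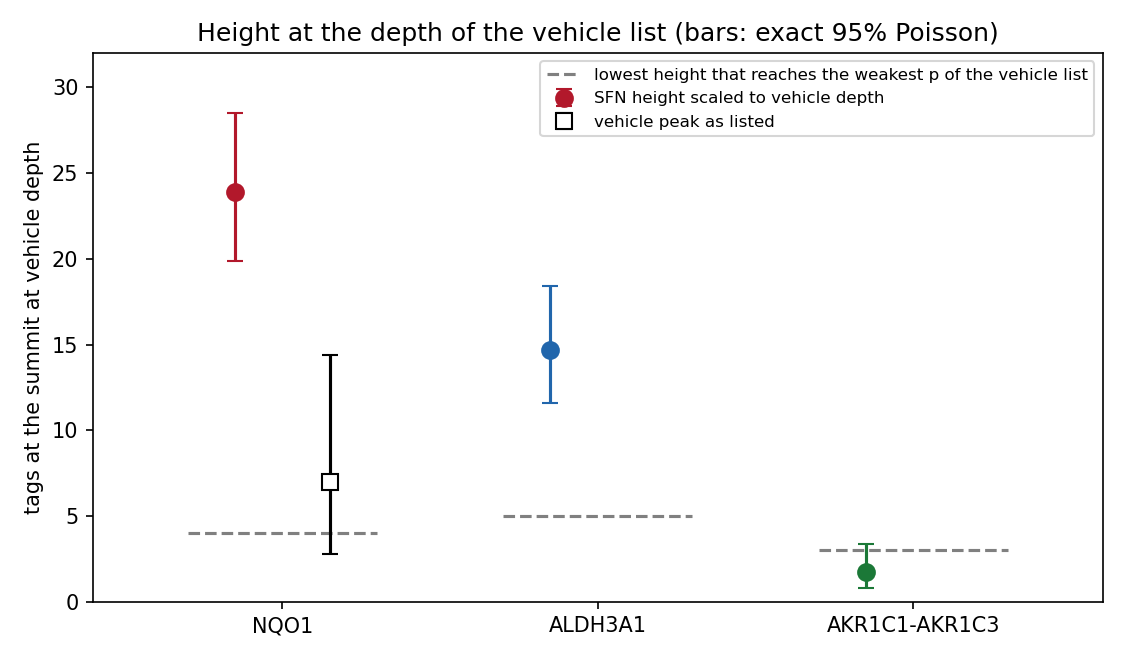
Tags at the summit at the depth of the vehicle list: SFN heights scaled by the ratio of kept tags (circles), the vehicle peak at NQO1 as listed (square), both with exact 95% Poisson intervals, and the lowest height that reaches the weakest p of the vehicle list (dashed). NQO1 and ALDH3A1 lie above their dashed lines, and AKR1C, at 1.76 tags, lies below its line of 3, which its interval spans.

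The 4 windows cover 270 kb. They held 11.1 SFN peaks and 3.70 vehicle peaks per Mb, against 0.713 and 0.814 per Mb of the effective genome. These densities rest on 3 peaks and 1 peak in windows drawn around known NRF2 target genes. The windows were chosen with earlier results of these data known, and the densities were not tested.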

How the data were processed

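The labels put the 5 ChIP-seq samples in groups by treatment and antibody. CASAVA 1.4, BWA, MACS2 and the build hg19 are named in, and taken here per, the submitters' processing notes. Per the file headers, each list was called by MACS2 from 1 alignment per treatment against 1 control whose name holds both input and IgG (28125771 kept tags) at a q cutoff of 0.05. The sources used here do not give whether samples were pooled. Each deposited peak has a signal (tags at the summit), a fold (ratio) over local control, and −log10 p and −log10 q values, all as the authors deposited them.

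Windows, overlaps, ranks, control levels and scaled heights were computed with Python 3.11.15, pandas 2.3.3 and scipy 1.17.1, and overlap and motif searches were tested on simulated data. The caller's fold was read as tags plus 1 over control plus 1, and the deposited −log10 p was obtained again from it to within 0.0001 with a Poisson tail. The members, windows and gene lists were chosen with earlier results of these data known. Peaks named were all those in the windows, the peak next above and below each by fold, and the nearest outside the windows, the last chosen after their values were seen. Alternatives covered the q cutoff, window width, overlap rule, ranking, depth ratio and motif. No test across replicates could be made.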

Additional observations from a re-analysis of the deposited data

How the results depend on the processing

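The 3 SFN peaks and 1 vehicle peak in the windows stayed 3 and 1 at a q of 1e-05 or less, with windows wider by 25 kb and by overlap of the peak, and the 1 overlap held for 50% of the shorter peak, for summits at most 100 bp apart and at a q of 1e-05 or less in both lists. Both longer forms of the motif contain the core. Their 0 matches in the promoters of the 4 genes therefore follow from the 0 for the core and are no separate check. Ranks by −log10 p were 4 for NQO1 (3 by fold), 21 for ALDH3A1 (28), 1231 for AKR1C (394) and 741 for the vehicle peak at NQO1 (516), and by tags they were 67, 215, 1553 and 934. With the ratio of all tags in place of kept tags (2.03 against 5.10), heights at the vehicle depth rose by construction. They became 60.1 tags for NQO1, 37.0 for ALDH3A1 and 4.43 for AKR1C, the last then above the 3 tags needed. The ratio of all tags counts tags before the limit per position, while the heights and the tags needed were counted after it. Distances to gene starts and motifs under the peaks were not run, since no hg19 genome or annotation was used. Leaving out a replicate could not be tried. No paired analysis was possible because the lists carry no replicate numbers. With 1459665 kept vehicle tags, the absence of a vehicle peak is the absence of a call.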
